A study of Mus musculus with 6 samples.

Results

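Genes of ER-associated degradation (ERAD) were examined in mouse liver expressing normal or mutant farnesoid X receptor (FXR), the bile acid sensor of hepatocytes. The 10 genes, of 23284 in the count files, were chosen by name and fall into 3 roles. Edem1, Edem2, Edem3 and Os9 recognize misfolded glycoproteins in the ER lumen. Derl1, Derl2 and Derl3 encode derlins, membrane proteins of the channel through which these proteins leave the ER. Syvn1, Sel1l and Herpud1 encode the ubiquitin ligase HRD1, its adaptor SEL1L and the scaffold HERPUD1. All 10 symbols were found, and all 10 passed the filter on low counts.

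In ERAD, a glycoprotein that fails to fold loses mannose residues to the EDEM proteins and is handed by the lectin OS9 to the SEL1L-HRD1 complex. There it is pulled to the cytosol, ubiquitinated and degraded by the proteasome. Hepatocytes make most plasma proteins, and their ERAD genes are part of the unfolded protein response (UPR), in which the sensors IRE1 and ATF6 raise transcription through XBP1 and the cleaved form of ATF6.

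FXR-floxed male mice were injected at 8 weeks of age with a pair of AAV vectors, both driven by the hepatocyte-directed TBG promoter. Cre from the first vector deleted the floxed gene in hepatocytes of both groups. The second expressed FXR again, as FXR-WT in 3 mice and, in 3 others, as Y67F-FXR, in which phenylalanine replaces a tyrosine that can be phosphorylated. The livers were taken 4 weeks after injection, following 6 h on a diet with 0.5% cholic acid, a bile acid that activates the receptor. The RNA came from whole liver, so that cells other than hepatocytes keep their own FXR gene. Livers given GFP in place of FXR were not analysed here, so each value below compares the mutant with the re-expressed normal receptor.

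Each liver gave 1 library of 19551113 to 22053320 counted reads. Levels are given as CPM, the reads of a gene as a share of the library total scaled by TMM factors. In whole liver, fewer cells of a type and less RNA per cell cannot be told apart. The targeted gene Nr1h4, which encodes FXR, had 152, 209 and 198 CPM in the FXR-WT livers and 169, 169 and 186 CPM in the Y67F-FXR livers. The groups overlapped, but the counts do not separate the gene of the animals from the transgene. The paper describes its flag-tagged FXR as human, and reads were counted on mouse exons. How much of the transgene these counts hold was not tested. Hepatocyte markers were abundant in all 6 livers, with Alb between 67620 and 76520 CPM. The summed CPM of marker lists for hepatocytes and 6 other cell types overlapped between the groups, and edgeR called 0 of the 30 markers tested. At an unadjusted p under 0.05 there were 4, or 13.3%, and all 4 were lower in Y67F-FXR livers, against 6.67% of all genes lower and 13.4% in either direction. They were the hepatocyte marker Fgb (-0.53 on the log2 scale), the endothelial marker Lyve1 (-0.89) and the stellate cell markers Lrat (-1.15, adjusted p = 0.0540 from edgeR) and Col1a1 (-0.77). Lrat had 18.7, 13.1 and 17.9 CPM in FXR-WT livers and 8.51, 5.78 and 8.12 CPM in Y67F-FXR livers. The groups did not overlap for Lrat, Col1a1 or Col3a1, 3 of the 5 stellate cell markers, all lower, against 10.5% of all genes lower without overlap. The sum of the 5, most of it Dcn, ranged from 194 to 199 CPM in FXR-WT and from 133 to 199 CPM in Y67F-FXR livers. The part of these cells in the results below was not tested.

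**Figure D1:**
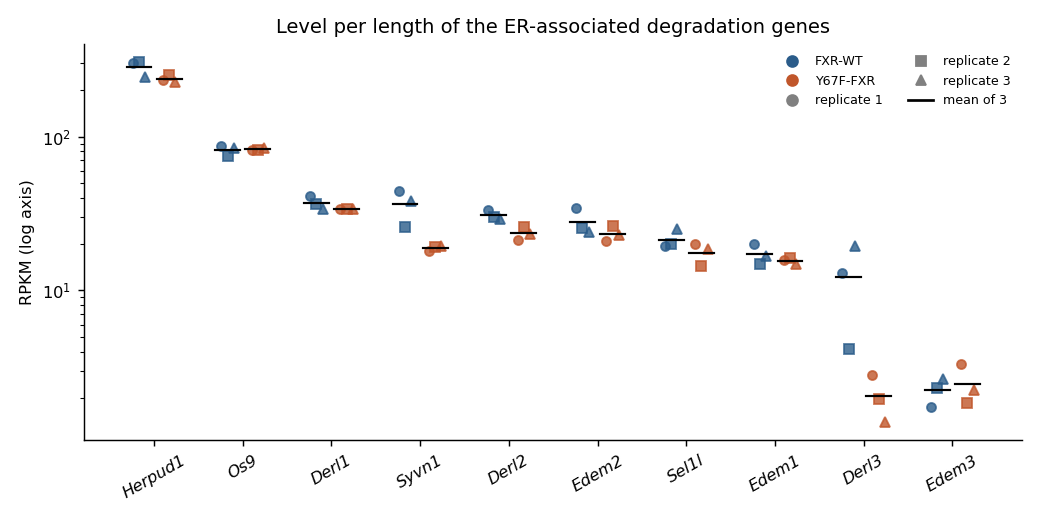
Level per length of the 10 genes in each liver, as RPKM on a log axis, ordered by the FXR-WT mean. Points are livers (colour: group, shape: replicate number) and bars are means of 3. Herpud1 lies near 283 RPKM and Edem3 near 2.25 RPKM in FXR-WT livers, and the Y67F-FXR livers lie apart from the FXR-WT livers for Syvn1, Derl2 and Derl3.

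Levels of different genes were compared per exon length, as RPKM, which is CPM divided by exon length in kilobases. Herpud1, whose product is itself degraded quickly, was the most abundant of the 10, with 283 ± 33.8 RPKM (SD, n = 3) in FXR-WT livers and 237 ± 14.1 RPKM (SD, n = 3) in Y67F-FXR livers. It made up 51.5% and 51.8% of the summed RPKM of the 10 genes. Os9 came next in both groups, with 82.0 ± 6.29 RPKM (SD, n = 3) in FXR-WT livers and 83.0 ± 1.25 RPKM (SD, n = 3) in Y67F-FXR livers. Neither gene overlapped with its neighbours in the order in any liver of its group.

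In FXR-WT livers, Derl1 (37.1 ± 3.65), Syvn1 (36.3 ± 9.54), Derl2 (30.9 ± 2.15), Edem2 (28.0 ± 5.77), Sel1l (21.4 ± 3.04), Edem1 (17.2 ± 2.53) and Derl3 (12.2 ± 7.74 RPKM, SD, n = 3) followed. Each of these overlapped with the next in this order, so that these neighbours do not differ beyond their spread. Genes further apart overlapped in some cases, as Syvn1 did with Edem2, but Derl1 lay above Derl2, Sel1l, Edem1 and Derl3 in all FXR-WT livers. Edem3 was lowest, at 2.25 ± 0.466 RPKM (SD, n = 3), and did not overlap with Derl3.

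The order of the means was partly different in Y67F-FXR livers. Derl3 was at rank 10 in place of rank 9, at 2.06 ± 0.728 RPKM (SD, n = 3), and now overlapped with Edem3 at 2.48 ± 0.758 RPKM (SD, n = 3). Syvn1 was at rank 6 in place of rank 4, at 18.9 ± 0.715 RPKM (SD, n = 3), where it overlapped with Sel1l and lay below Edem2 in all 3 livers.

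The question put to these genes was whether the mutant receptor left their mRNA at a different level from the normal one. The largest fitted differences were those of Derl3, 5.92-fold lower, and Syvn1, 1.91-fold lower, in Y67F-FXR livers. Derl2 followed at 1.32-fold lower, and the other 7 genes had fitted folds of 1.22 or less. None of the 10 was called, where a call needs a Benjamini-Hochberg adjusted p under 0.05 over all genes in edgeR's quasi-likelihood test and a fold over 1.5. Of all 12453 genes tested, 0.426% were called lower and 0.546% higher by this rule.

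At an unadjusted p under 0.05 in the same test, 3 of the 10 genes were lower and 0 higher, against 6.67% lower and 6.75% higher of all genes. DESeq2 and edgeR's likelihood ratio test each called 2 of the 10 lower, Derl3 and Syvn1, and limma-voom called 0. Of all genes, DESeq2 called 1.73% lower and 1.73% higher, the likelihood ratio test 1.81% and 1.77%, and limma-voom 0.434% and 0.53%. Among the 10 the median fitted log2 value was -0.26, and 8 lay below 0. Over all genes tested the median was 0.01, with 48% below 0.

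**Figure D2:**
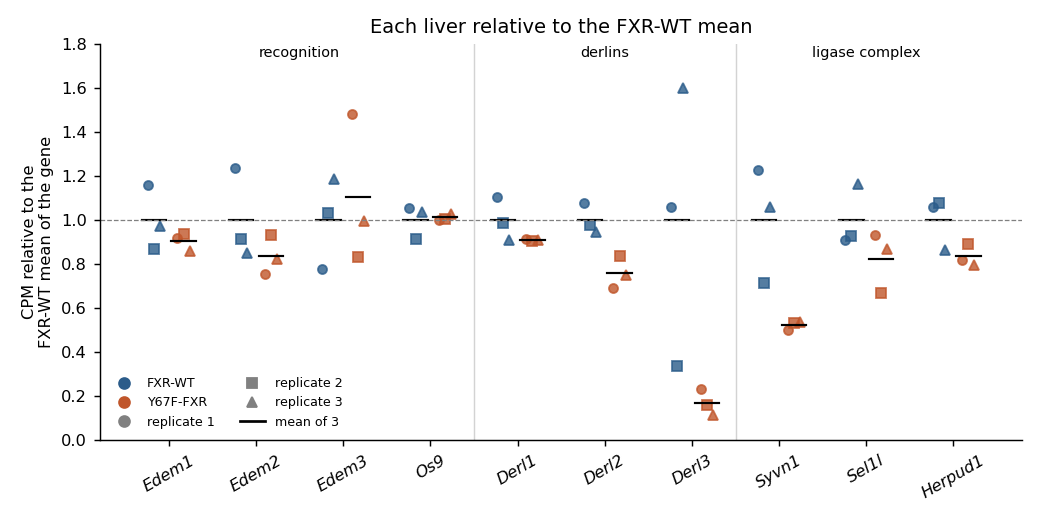
CPM of each liver divided by the FXR-WT mean of the gene, for the 10 genes grouped by role. Points are livers (colour: group, shape: replicate number), bars are means of 3, and the dashed line is the FXR-WT mean. The groups are apart for Derl2, Derl3 and Syvn1, and FXR-WT replicate 2 is the lowest FXR-WT liver for Derl3 and Syvn1.

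Among the derlins, Derl3 (chromosome 10 of mm9, 75356143 to 75358686, + strand) is the family member made mainly by secretory cells under ER load. It had 17.3, 5.53 and 26.1 CPM in the FXR-WT livers, in the order of replicates 1 to 3. The Y67F-FXR livers had 3.79, 2.62 and 1.86 CPM. All 3 Y67F-FXR livers were below all 3 FXR-WT livers, but FXR-WT replicate 2 was much nearer to them than the others were. These values rest on 39 to 605 reads. The Y67F-FXR mean differed from the FXR-WT mean by -83.1%, and the log2 fold change was -2.57 (standard error 0.541, 95% interval -3.81 to -1.32, adjusted p = 0.0872 from edgeR). Within FXR-WT livers alone, the highest value was 4.73 times the lowest.

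Leaving out FXR-WT replicate 2 brought the adjusted p from edgeR to 0.0331 for Derl3, with a log2 fold change of -2.98. With any other liver left out it lay between 0.143 and 0.329, and the log2 fold change between -2.87 and -2.05. DESeq2, on all 6 livers, gave an adjusted p of 2.11e-05. Since Derl3 is also known from plasma cells and pancreatic acinar cells, their markers were read beside it. The B and plasma cell list had a sum of 4.41 to 6.60 CPM in FXR-WT and 4.18 to 8.89 CPM in Y67F-FXR livers. Of 5 acinar markers, 4 had no read in any liver, and the other, Cela1, had 10.02 to 13.2 CPM in FXR-WT and 9.28 to 11.5 CPM in Y67F-FXR livers. The part of these cells in the Derl3 values was not tested.

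Derl2 (chromosome 11, 70820947 to 70832765, - strand) is a derlin found with the SEL1L-HRD1 complex. It had 121, 109 and 106 CPM in FXR-WT livers and 77.1, 93.7 and 84.2 CPM in Y67F-FXR livers. The groups did not overlap, with Y67F-FXR replicate 2 nearest to the FXR-WT livers. The log2 fold change was -0.40 (standard error 0.124, 95% interval -0.68 to -0.11, adjusted p = 0.210 from edgeR).

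Derl1 (chromosome 15, 57701057 to 57723973, - strand), a derlin that binds the extraction ATPase VCP, had 129, 115 and 106 CPM in FXR-WT livers. Its Y67F-FXR livers lay at 106, 106 and 106 CPM, a coefficient of variation of 0.34%, and met the lowest FXR-WT liver. The log2 fold change was -0.14 (95% interval -0.41 to 0.14, adjusted p = 0.705 from edgeR).

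The derlins were also set against each other within each liver. The ratio of Derl1 to Derl3, per length, was 3.16, 8.83 and 1.72 in FXR-WT livers and 11.9, 17.2 and 24.2 in Y67F-FXR livers. That of Derl2 to Derl3 was 2.57, 7.29 and 1.49 in FXR-WT livers and 7.50, 13.2 and 16.7 in Y67F-FXR livers. Both ratios did not overlap between the groups, although for Derl2 to Derl3 the nearest livers were at 7.29 and 7.50. The ratio of Derl1 to Derl2 also did not overlap, with 1.23, 1.21 and 1.15 against 1.59, 1.30 and 1.45. The exact permutation test (two-sided) gave p = 0.1 for each of these 3 ratios, the smallest value it allows for 3 livers against 3. Ratios were formed for the 12 pairs within a role, of which 4 did not overlap between the groups, and p adjusted over the 12 was 0.3 for each of the 4 (Benjamini-Hochberg, from the exact test).

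Syvn1 (chromosome 19, 6046576 to 6053718, + strand) encodes HRD1, the ligase at the centre of the complex. It had 163, 94.5 and 140.2 CPM in FXR-WT livers and 66.3, 70.5 and 71.1 CPM in Y67F-FXR livers. The Y67F-FXR livers lay close together, with a coefficient of variation of 3.77% against 26.3% in FXR-WT, and below every FXR-WT liver. The Y67F-FXR mean differed by -47.7%, and the log2 fold change was -0.94 (standard error 0.195, 95% interval -1.39 to -0.49, adjusted p = 0.0844 from edgeR).

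As for Derl3, the adjusted p of Syvn1 passed the threshold in edgeR's quasi-likelihood test without FXR-WT replicate 2, and on all 6 livers in DESeq2 (adjusted p = 0.00142) and the likelihood ratio test (adjusted p = 0.00178). Without that liver the log2 fold change was -1.13 and the adjusted p from edgeR 0.0409. With any other liver left out the adjusted p lay between 0.161 and 0.30. Part of the Syvn1 exons lies over those of Mrpl49, and reads on both genes were not counted, so its level is uncertain to that extent.

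For both partners of HRD1 the groups overlapped in these CPM, though not with a trend in gene length taken out, as given below. Sel1l (chromosome 12, 93044483 to 93087597, - strand), the adaptor that holds HRD1 stable, had 122.5, 125 and 157 CPM in FXR-WT livers and 126, 90.2 and 117 CPM in Y67F-FXR livers. For Sel1l the log2 fold change was -0.28 (95% interval -0.66 to 0.10, adjusted p = 0.534 from edgeR). Herpud1 (chromosome 8, 96910400 to 96919258, + strand) had 562.1, 571 and 457 CPM in FXR-WT livers. Its Y67F-FXR livers had 433, 472.5 and 422 CPM, of which 1 reached above the lowest FXR-WT liver. The log2 fold change was -0.26 (95% interval -0.57 to 0.05, adjusted p = 0.457 from edgeR).

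The stoichiometry of ligase and adaptor mRNA overlapped between the groups. The ratio of Syvn1 to Sel1l, per length, was 2.29, 1.30 and 1.54 in FXR-WT livers and 0.910, 1.35 and 1.05 in Y67F-FXR livers (p = 0.2, exact permutation test, two-sided). That of Syvn1 to Herpud1 was 0.148, 0.0846 and 0.157 against 0.0783, 0.0763 and 0.0861. In both, FXR-WT replicate 2 was the liver that met the Y67F-FXR range.

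Of the genes that recognize substrates, none separated the groups by its own level. The ratio of Edem1 to Os9, per length, did not overlap, with 0.231, 0.20 and 0.198 in FXR-WT livers and 0.193, 0.196 and 0.175 in Y67F-FXR livers (p = 0.1, exact permutation test). Edem1 (chromosome 6, 108778635 to 108809350, + strand), a mannosidase-like protein that speeds the release of misfolded glycoproteins from folding cycles, had 117, 87.5 and 98.4 CPM in FXR-WT livers. In Y67F-FXR livers it had 92.8, 94.5 and 86.5 CPM, and the log2 fold change was -0.14 (95% interval -0.46 to 0.17, adjusted p = 0.733 from edgeR). Edem2 (chromosome 2, 155527409 to 155555211, - strand), which removes the first mannose, had 79.3, 58.5 and 54.7 CPM against 48.4, 59.9 and 52.7 CPM. Its log2 fold change was -0.26 (95% interval -0.65 to 0.13, adjusted p = 0.596 from edgeR).

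Os9 (chromosome 10, 126531315 to 126558216, - strand), the lectin that reads the trimmed glycan, had 349.6, 303 and 344 CPM in FXR-WT livers and 332, 334 and 342 CPM in Y67F-FXR livers. The Y67F-FXR values lay inside the FXR-WT range. The log2 fold change of 0.02 (95% interval -0.25 to 0.28) has an interval within the fold of 1.5 in both directions, and its sign turned when libraries were scaled by their totals alone (-0.05).

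Edem3 (chromosome 1, 153602504 to 153669458, + strand), a mannosidase that trims further, had 11.5, 15.3 and 17.6 CPM in FXR-WT livers and 21.97, 12.3 and 14.8 CPM in Y67F-FXR livers. The groups overlapped widely, and the log2 fold change was 0.14 (95% interval -0.42 to 0.71, adjusted p = 0.877 from edgeR). Libraries differed in a trend with gene length, and Edem3, with 6604 bp of exons, is the longest of the 10. This trend had a log2 value of -0.12 in the first FXR-WT liver and 0.20 in the first Y67F-FXR liver, the livers with the lowest and the highest CPM of Edem3. Its lowest value for Edem3 was -0.17, in Y67F-FXR replicate 2. With the trend taken out, the coefficient of variation of Edem3 went from 20.7% to 13.7% in FXR-WT and from 30.6% to 17.2% in Y67F-FXR livers. The same step raised the coefficient of variation of 7 of the 10 genes in FXR-WT and of 6 in Y67F-FXR livers, that of Edem1 from 14.7% to 20.9% and from 4.61% to 13.9%.

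Summed over the 10 genes, the level was 1672, 1485 and 1507 CPM in FXR-WT livers and 1308, 1336 and 1298 CPM in Y67F-FXR livers, a difference of -15.5% between the means. Without Herpud1, which holds between 30.4% and 38.5% of the sum, it was -14.9%. The groups did not overlap in either sum. Gene by gene, the groups did not overlap for 3 of 10, all lower, against 10.5% of all genes lower and 10.2% higher. When libraries were scaled by their totals alone, 6 of 10 were lower without overlap, against 14.2% of all genes lower and 7.06% higher. That scaling put the median of all genes at -0.06 on the log2 scale. With the trend in gene length taken out, 5 of 10 were lower, against 11.6% of all genes lower and 12.2% higher. Those were Derl2, Derl3 and Syvn1, joined by Sel1l and Herpud1.

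The mean of the 10 centred log2 CPM profiles was 0.34, 0.01 and 0.32 in the FXR-WT livers and -0.15, -0.25 and -0.29 in the Y67F-FXR livers, so that FXR-WT replicate 2 lay between the groups. The profiles were not scaled, so Derl3, with the largest difference, weighs most in this mean. Gene by gene, FXR-WT replicate 2 was the lowest FXR-WT liver for 4 of the 10, and replicate 3 also for 4. The genes followed the mean profile to different degrees. Pearson's r over the 6 livers with the mean of the other 9 was 0.953 for Syvn1, 0.931 for Derl3 and 0.761 for Derl2. It was 0.230 for Os9 and -0.24 for Edem3. The 6 livers share the division into 2 groups and differ in depth, so r is a description only.

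Outside the 10 genes, the 5 whose log2 CPM was most like their mean profile were Erlin1 (r = 0.997 over 6 livers), Hsp90b1 (0.995), Utp6 (0.993), Hspb1 (0.981) and Ptpn3 (0.978). Erlin1 encodes an ER membrane scaffold of ERAD, and Hsp90b1 the ER chaperone GRP94. Of the 5, Erlin1 alone is on the wider ERAD list used below, and Utp6, Hspb1 and Ptpn3 were on no list here. In Hsp90b1, with 1940, 1112 and 1823 CPM in FXR-WT livers, replicate 2 was again the lowest, and its Y67F-FXR livers had 824, 782 and 742 CPM. None of the 5 was called, and their adjusted p from edgeR ranged from 0.0722 to 0.288.

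**Figure D3:**
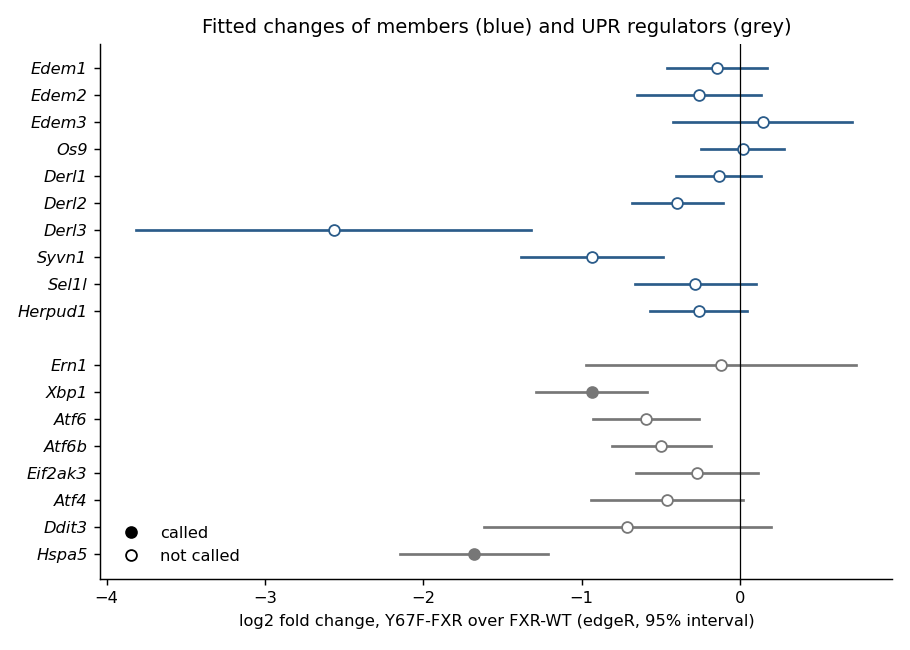
Fitted log2 fold change of Y67F-FXR over FXR-WT livers with its 95% interval from edgeR, for the 10 ERAD genes (blue) and for UPR sensors, transcription factors and Hspa5 (grey). Filled points are called. The intervals of Derl3, Derl2 and Syvn1 lie below 0, and among the grey genes Xbp1 and Hspa5 are called.

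Regulators of these genes were lower in Y67F-FXR livers in 2 of 8 cases by the same rule, which called 0.426% of all genes lower. Xbp1, the transcription factor that drives much of ERAD gene expression, had 399, 290.2 and 321 CPM in FXR-WT livers and 165, 169 and 194 CPM in Y67F-FXR livers (log2 fold change -0.94, adjusted p = 0.0379 from edgeR). Its call was lost with each of the 6 livers left out, with adjusted p from 0.0621 to 0.137 in edgeR. Total counts do not separate its spliced form, which is the active one. Hspa5, the chaperone BiP that holds the UPR sensors inactive, lay at -1.68 on the log2 scale (adjusted p = 0.0175 from edgeR). With 1 liver left out its adjusted p from edgeR was 0.02 to 0.0771, and it was above 0.05 without FXR-WT replicate 3, Y67F-FXR replicate 1 or Y67F-FXR replicate 3.

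The sensor gene Atf6 lay at -0.59 on the log2 scale (adjusted p = 0.122 from edgeR) and its relative Atf6b at -0.50 (adjusted p = 0.159 from edgeR), both without overlap of the groups. Ern1, which encodes the sensor IRE1, had -0.12 (adjusted p = 0.942 from edgeR), and its sign turned with 1 liver left out. It lay at -0.60 without Y67F-FXR replicate 1 and at -0.32 without FXR-WT replicate 1, and was above 0 without FXR-WT replicate 3 (0.13), Y67F-FXR replicate 2 (0.13) or Y67F-FXR replicate 3 (0.0036). Eif2ak3 (-0.27), Atf4 (-0.46) and Ddit3 (-0.71), of the PERK branch, had overlapping groups and adjusted p from 0.396 to 0.563 in edgeR. Without FXR-WT replicate 1, Atf4 lay at -0.26 and Ddit3 at -0.18. Derl3 and Syvn1 had an r with Xbp1 and Hspa5 of 0.85 to 0.968 over the 6 livers, a description that shares the division into groups. In Xbp1 and Hspa5, as in Derl3 and Syvn1, FXR-WT replicate 2 was the lowest of the FXR-WT livers.

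Promoter sequence was then read for the 10 genes, since the ER stress response element (ERSE) is the classical site of ATF6 and XBP1. Windows of RefSeq genes (GRCm38.p6) from 250 bases before to 50 bases after the start were searched on both strands. The motifs were ERSE (CCAAT, 9 bases of any kind, CCACG), ERSE-II (ATTGG, 1 base of any kind, CCACG) and the core of the UPR element (TGACGTG). Of the 10 genes, 9 had a window, and Derl1 had none in the table. An ERSE was present in Derl3 and Syvn1, and in 0.119% of all 32851 windows. An ERSE-II was present in Herpud1, and in 0.0365% of all windows. The UPR element core was in none of the 9, and in 2.01% of all windows. The absence of a match says only that these letters are not in these windows. ERSE and ERSE-II share the letters CCACG, and no window of the 9 held both.

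The matches are shown in the orientation of the motif, with that of Hspa5 for comparison. They begin 156 bases before the start in Derl3, on the minus strand of the gene, and 44, 65 and 52 bases before it in Syvn1, Hspa5 and Herpud1.
Derl3 ERSE: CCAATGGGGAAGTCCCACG
Syvn1 ERSE: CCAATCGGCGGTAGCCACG
Hspa5 ERSE: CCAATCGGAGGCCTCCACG
Herpud1 ERSE-II: ATTGGGCCACG

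The 250 bases before the start are given for the 3 genes with a match, 5′ to 3′ on the strand of the gene, with the match in capitals. They are chr10:75893148-75893397, chr19:6046326-6046575 and chr8:94386179-94386428 of GRCm38.p6, all on the + strand. In Derl3 the element reads in reverse, CGTGG first.
Derl3: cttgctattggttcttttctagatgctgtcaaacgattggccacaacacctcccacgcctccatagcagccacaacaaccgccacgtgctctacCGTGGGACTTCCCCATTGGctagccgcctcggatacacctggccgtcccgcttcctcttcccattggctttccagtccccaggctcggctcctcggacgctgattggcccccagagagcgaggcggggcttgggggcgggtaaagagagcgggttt
Syvn1: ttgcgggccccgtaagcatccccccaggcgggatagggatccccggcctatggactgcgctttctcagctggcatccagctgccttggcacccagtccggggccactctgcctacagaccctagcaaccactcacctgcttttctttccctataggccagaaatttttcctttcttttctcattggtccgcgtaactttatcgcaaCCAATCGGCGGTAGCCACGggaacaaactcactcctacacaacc
Herpud1: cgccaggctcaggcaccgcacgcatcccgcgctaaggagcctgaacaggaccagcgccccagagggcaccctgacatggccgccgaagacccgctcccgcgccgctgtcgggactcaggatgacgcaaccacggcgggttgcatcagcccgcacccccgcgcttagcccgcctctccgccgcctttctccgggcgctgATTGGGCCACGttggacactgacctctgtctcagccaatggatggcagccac

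**Figure D4:**
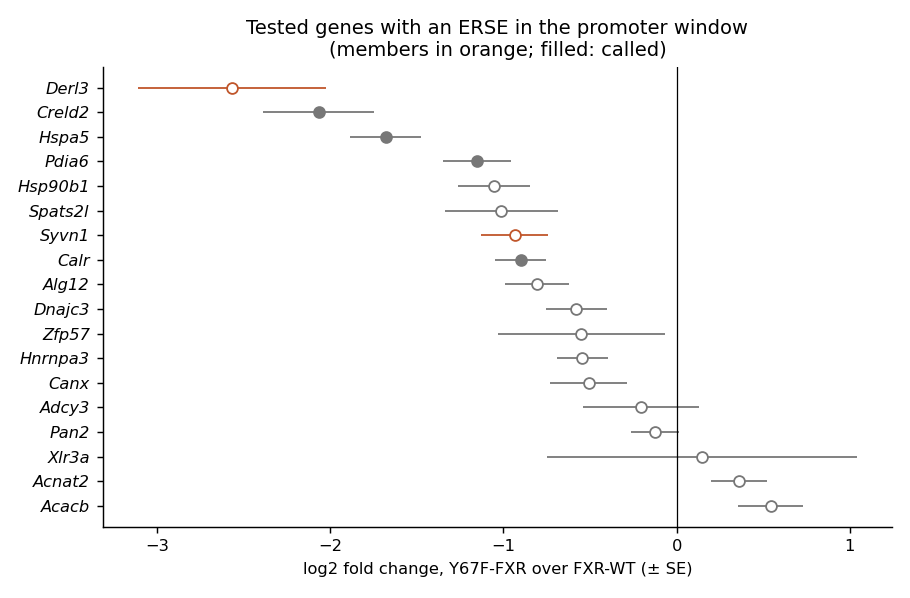
Fitted log2 fold change (± standard error, edgeR) of the 18 tested genes with an ERSE in the promoter window, Y67F-FXR over FXR-WT livers. Derl3 and Syvn1 are in orange and filled points are called. Of the 18 genes, 15 have a value below 0, and Calr, Creld2, Hspa5 and Pdia6 are called.

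Derl3 and Syvn1 were then placed among all genes with an ERSE in the window, a list taken up after their own values were known, so that it carries no test. Of 37 such genes, 18 were tested, and every count below includes Derl3, Syvn1 and Hspa5, whose low values were already known. Their median on the log2 scale was -0.69, and 15 were below 0, against a median of 0.01 and 48% below 0 over all genes. The groups did not overlap for 12 of the 18 in the lower direction and for 1 in the higher, against 10.5% and 10.2% of all genes. Creld2 (-2.07), Hspa5 (-1.68), Pdia6 (-1.15) and Calr (-0.90), which encode ER chaperones and folding factors, were called lower, which is 22.2% of the 18 against 0.426% of all genes. By the same rule 0 of the 18 were called higher. With 1 liver left out the number called lower ranged from 0 to 6. It was 0 without FXR-WT replicate 3, Y67F-FXR replicate 1 or Y67F-FXR replicate 3, where 0.0556%, 0.127% and 0.135% of all genes were called lower. It was 1 without Y67F-FXR replicate 2 (0.214% of all genes), 2 without FXR-WT replicate 1 (0.246%), and 6 without FXR-WT replicate 2 (0.262%). In size of the log2 fold change, Derl3 was first and Syvn1 seventh among the lower values of the 18.

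Herpud1 stood among 6 tested genes with an ERSE-II, whose median log2 fold change was -0.20, against 0.01 over all genes. Of the 6, 4 lay below 0, and the groups did not overlap for 1, in the lower direction, against 10.5% of all genes. Dnajb11, an ER co-chaperone, was the one called (-1.08, adjusted p = 0.0210 from edgeR), against 0.426% of all genes called lower. It kept its call without FXR-WT replicate 1, FXR-WT replicate 2 or Y67F-FXR replicate 2, and had an adjusted p of up to 0.102 in edgeR without 1 of the others. Of 601 genes with the UPR element core, 280 were tested, with a median of 0.003 and 136 below 0. The groups did not overlap for 40 in the lower direction and 27 in the higher, against 10.5% and 10.2% of all genes. Hspa5 was the 1 called lower, or 0.357% of the 280, and 1 was called higher, against 0.426% and 0.546% of all genes.

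**Figure D5:**
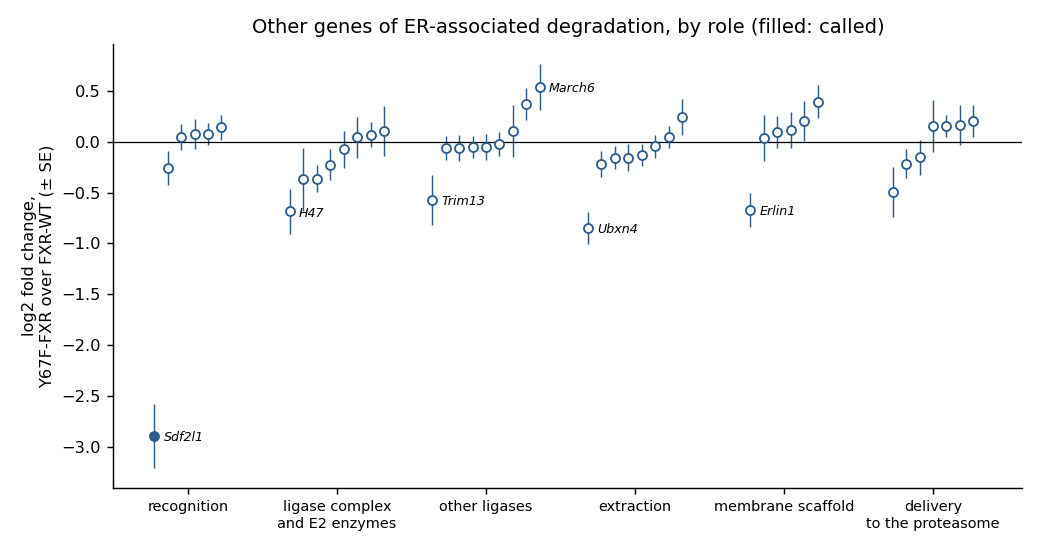
Fitted log2 fold change (± standard error, edgeR) of 44 other ERAD genes, Y67F-FXR over FXR-WT livers, by role. Filled points are called and genes beyond 0.5 in either direction are named. Sdf2l1 at -2.89 is the one filled point, and most of the others lie within 0.5 of 0.

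The wider pathway was read from a list of 45 other ERAD genes, of which 44 were in the files and all 44 were tested. Of these, 1 was called lower and 0 higher, against 0.426% and 0.546% of all genes. At an unadjusted p under 0.05 in edgeR, 6 were lower and 3 higher, against 6.67% and 6.75% of all genes. The groups did not overlap for 8 in the lower direction and 3 in the higher, against 10.5% and 10.2% of all genes. The median log2 fold change was -0.03, with 23 values below 0 and 21 above.

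The called gene was Sdf2l1, an ER luminal partner of the chaperone BiP and its J-proteins. It had 52.2, 22.5 and 40.4 CPM in FXR-WT livers and 5.83, 4.15 and 5.49 CPM in Y67F-FXR livers, with FXR-WT replicate 2 again the lowest of its group. Its adjusted p from edgeR was 0.0139, and 0.0614 and 0.0648 without FXR-WT replicate 3 or Y67F-FXR replicate 3. Over the 6 livers, r was 0.923 between Sdf2l1 and Derl3 and 0.963 between Sdf2l1 and Syvn1.

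By role, 6 genes for recognition had a median log2 value of 0.06, with Sdf2l1 far from the other 5, and 8 genes of the ligase complex and its E2 enzymes had -0.15. The 9 other ligases were at -0.05, the 8 genes for extraction at -0.14, the 6 membrane scaffold genes at 0.11 and the 7 for delivery to the proteasome at 0.16. Among genes not called, Ubxn4, an ER anchor of the extraction ATPase VCP, had -0.85 (adjusted p = 0.0541 from edgeR). Erlin1 had -0.67 (adjusted p = 0.124 from edgeR), and H47, now named Selenos, which recruits VCP to the derlins, had -0.68 (adjusted p = 0.221 from edgeR) and -0.40 without FXR-WT replicate 1. Vcp itself, the ATPase that pulls substrates out, had 293, 306 and 297 CPM in FXR-WT livers and 263, 270.5 and 284 CPM in Y67F-FXR livers. Its groups did not overlap, and the log2 fold change was -0.13 (adjusted p = 0.682 from edgeR).

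In the other direction lay March6 (0.54), a ligase of a separate branch that also degrades enzymes of sterol synthesis, Tmub2 (0.40) and the ligase Rnf103 (0.38), with adjusted p from 0.345 to 0.357 in edgeR. March6 lay at 0.35 without FXR-WT replicate 1 and at 0.34 without Y67F-FXR replicate 1, and Tmub2 at 0.22 without Y67F-FXR replicate 2. Tmub2 shares exon bases with Atxn7l3. March6 had 49.6, 76.5 and 80.2 CPM in FXR-WT livers and 126, 82.3 and 92.0 CPM in Y67F-FXR livers, which did not overlap.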

How the data were processed

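Paired-end libraries were made from liver RNA, 1 per liver, for 3 livers of each group. Per the labels, the authors trimmed reads with Trimmomatic 0.36 and aligned them with STAR to mm9. Per the file headers, the deposited counts are raw reads per gene over UCSC mm9 exons from featureCounts 1.4.6-p4. Strand was not used, each mate was a count of its own, and ambiguous or multi-mapping reads were left out. Totals were 19551113 to 22053320 reads, and Derl3 had the lowest count of the ERAD genes chosen, 39 reads in Y67F-FXR replicate 3. A deposited table of the authors' own comparison (fold change and p-value per gene) was not used.

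Counts were fitted in R 4.3.3 with edgeR 4.0.16 (filterByExpr, TMM, glmQLFit, glmQLFTest) on 12453 genes, all 6 livers, group only. Calls need an adjusted p under 0.05 and a fold over 1.5. Standard errors come from the F statistic. Log2 CPM used a prior count of 2. Loess offsets on exon length had a span of 0.3. DESeq2 1.42.0 and limma 3.58.1 were alternatives, as were other scalings, filters, a block and left-out livers. RPKM used the exon length of the files. The fits were tested on simulated data. All pairs of replicates differed by more than counting noise (median chi-square per gene 2.21 to 7.84).

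Named were the 10 genes, Nr1h4, the 8 regulators, called genes of the wider list with the 3 smallest p in each direction among the others, and the 5 genes most like the mean profile. Vcp and the genes with an ERSE, an ERSE-II or the UPR element core were chosen after their values were seen. Fam8a1, of the wider list, was not used here, as its symbol was not matched. The members and lists were chosen with earlier results of these data known. P-values from edgeR, DESeq2 and limma set each difference against the spread between these livers, estimated with information shared across genes.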

Additional observations from a re-analysis of the deposited data

How the results depend on the processing

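The number of the 10 ERAD genes called lower, 0 in the fit reported, was 1 with no filter on low counts (Derl3) and 2 with the likelihood ratio test or DESeq2. With 1 liver left out it ranged from 0 to 2. The number of other ERAD genes called lower, 1 in the fit reported, was 2 with no filter on low counts, 3 with the likelihood ratio test or DESeq2, 2 with gene length offsets, and from 0 to 1 with 1 liver left out. No alternative called any of these genes higher. Of all genes, 0.426% were called lower in the fit reported, 0.481% with no filter and 0.996% with gene length offsets. The likelihood ratio test called 1.81% of all genes lower and DESeq2 1.73%. With 1 liver left out the share was 0.0556% to 0.262%. The count of the 10 genes whose groups do not overlap was 3, and 6 with library totals only and 5 with gene length offsets. The cause of these shifts was not tested.

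The median log2 fold change of the 10 genes lay between -0.33 and -0.15 over all alternatives. Signs turned for Os9 with library totals only (-0.054) and without FXR-WT replicate 2 (-0.045), and for Edem3 without FXR-WT replicate 1 (-0.015) and without Y67F-FXR replicate 1 (-0.13). With 1 liver left out, the log2 fold change of Os9 ranged from -0.045 to 0.050 and that of Edem3 from -0.13 to 0.30. The other 8 genes had a value below 0 in every alternative run, but leaving out 1 liver moved 4 of them by over 1.5 times. Without FXR-WT replicate 1, Edem1 lay at -0.03 in place of -0.14, Edem2 at -0.08 in place of -0.26 and Derl1 at -0.06 in place of -0.14. Edem1 lay at -0.24 without FXR-WT replicate 2. Sel1l, at -0.28, lay at -0.16 without FXR-WT replicate 3 and at -0.17 without Y67F-FXR replicate 2. Over all genes, library totals only gave 68 lower and 52 higher calls, in place of 53 lower and 68 higher with TMM factors. The likelihood ratio test gave 226 and 221, DESeq2 216 and 215, and gene length offsets 124 and 123.

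Mice of the 2 groups share replicate numbers, but same-numbered livers did not deviate together (correlations of -0.517, -0.0804 and 0.121), and 1 of the 6 livers correlated best with its own number. With the replicate block, 6 genes were called lower and 2 higher over all genes, Sdf2l1 among them. The block called 0 of the 10 ERAD genes, with a median log2 fold change of -0.25, and 1 of the other ERAD genes. Among the 18 genes with an ERSE, a list added after the data were seen, 4 were called lower in the fit reported. The number was 8 with the likelihood ratio test or DESeq2, which called 1.81% and 1.73% of all genes lower, and 0 with the replicate block, which called 0.0482%.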
